A study of Mus musculus with 6 samples.

Results

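*Trp53* and 9 of its direct target genes were examined in the transcriptome of neural stem cells (NSCs) from mouse embryos with a dorsal telencephalic deletion of the microRNA miR-151 (cko) and from controls (ctrl). The 10 genes were taken by name (*Trp53*, *Mdm2*, *Ccng1*, *Bbc3*, *Bax*, *Sesn1*, *Sesn2*, *Trp53inp1*, *Zmat3* and *Phlda3*), and all 10 were found among the 32493 genes of the count table. NSCs came from E14.5 embryos and were grown for 3 generations before RNA was taken. In cko embryos both miR-151 alleles were floxed (fl/fl) and Emx1-IRES-Cre, active in progenitors of the dorsal telencephalon, supplied Cre. Their ctrl littermates were fl/fl without Cre and are called wt in the sample records. The miR-151 locus lies in an intron of *Ptk2*, and both groups carry the floxed allele, which Cre deletes in cko cells. The miRNA itself is not among the genes counted, so that its loss could not be checked in these libraries. The table holds 3 cko and 3 ctrl columns, but ctrl column 2 equals the mean of ctrl columns 1 and 3, rounded up, in all 32493 genes, so the genotypes were compared with 3 cko and 2 ctrl libraries. The labels give no separate animal for each library, so that p-values measure only the spread between these libraries.

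*Trp53* encodes the transcription factor p53, which is held at a low level because the ubiquitin ligase MDM2 marks it for degradation. DNA damage and other stresses release p53 from MDM2, mainly at the protein level, and p53 then raises genes for cell cycle arrest, repair, metabolism and cell death. *Mdm2* is itself a p53 target, which closes a negative feedback loop. In neural progenitors p53 is known for restraining self-renewal and for removing damaged cells. The RNA level of its targets is therefore commonly read as a measure of p53 output.

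Reads were counted per gene, and values are CPM after TMM normalization, in which each count is scaled by its library's total and a composition factor. Total counts were 17883796 to 23335736 per library, at which 3 counts correspond to 0.129 to 0.168 CPM, a limit that covers counting error only. Every member had at least 571 counts in each of the 5 libraries, and all 10 passed the filter on low counts. The NSC markers summed to 5437 and 6697 CPM in ctrl and 7660 to 8189 CPM in cko libraries, with all 8 listed genes detected, and 3 of the 8 were higher and none lower at an adjusted p under 0.05 in edgeR. The astrocyte list, summing to 2592 and 3478 CPM in ctrl and 1311 to 1906 in cko libraries, had 3 of 6 genes lower, and the oligodendrocyte lineage list had 2 of 8 higher and 4 lower, at 2755 and 3377 against 3224 to 3508 CPM. Neuronal markers, of which *Map2* makes up most, summed to 1128 and 1256 CPM in ctrl and 1266 to 1298 in cko libraries, and of 6 tested *Syt1* and *Elavl4* were higher (2.97-fold and 2.46-fold) and *Dcx* was lower (2.85-fold). Microglial markers summed to at most 1.23 CPM with *Cx3cr1* at 0, endothelial markers to at most 6.76 CPM with *Cdh5* at 0, and erythroid markers to at most 0.655 CPM with *Hba-a1* and *Hbb-bs* at 0. Mesenchymal and meningeal markers summed to 13.7 and 19.3 CPM in ctrl and 4.53 to 5.75 in cko libraries. In every library *Foxc1* made up most of this sum. *Xist*, read from the inactive X chromosome, was at 2557 and 2889 CPM in ctrl and 787 to 894 in cko libraries, and the Y-linked *Kdm5d* at 25.1 and 27.0 against 67.6 to 69.1. The part of these marker differences in the values below was not tested, and sex-linked genes and genotype cannot be told apart in these libraries. In bulk RNA, fewer cells of a type and less RNA per cell cannot be told apart either.

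p53 binds DNA as a tetramer on a pair of 10-base half-sites. The promoter windows of RefSeq (GRCm38.p6, 250 bases before to 50 after the start of transcription) were available for 8 of the 10 members in 11 windows, and were searched for the p53 consensus half-site, which reads alike on both strands. At least 1 exact half-site was in 5 of the 11 windows, against 8.356% of all 32851 windows. A pair of half-sites with a spacer of 0 to 13 bases and at most 2 mismatches was in 3 of the 11 windows (4.085% of all windows), and with at most 3 mismatches in 6 (15.567%). These members were listed as the p53 gene itself and its known targets, so that the matches are a description and show no binding in these cells. The sequences are shown because they set apart the members whose start region holds such a pair from those where none was found in this window. The best pair was taken by the fewest mismatches, whatever its spacer. It was at 1 mismatch in *Ccng1*, at 2 in *Bax* and in the downstream *Sesn1* start, and at 3 in *Trp53* and *Bbc3*. The 250 bases before the start of *Ccng1* (minus strand, chr11:40755287-40755536), *Bax* (minus strand, chr7:45466899-45467148) and the first listed start of *Bbc3* (plus strand, chr7:16309333-16309582) read as follows, 5′ to 3′ on the strand of the gene, with the pair of half-sites in capitals.
*Ccng1*: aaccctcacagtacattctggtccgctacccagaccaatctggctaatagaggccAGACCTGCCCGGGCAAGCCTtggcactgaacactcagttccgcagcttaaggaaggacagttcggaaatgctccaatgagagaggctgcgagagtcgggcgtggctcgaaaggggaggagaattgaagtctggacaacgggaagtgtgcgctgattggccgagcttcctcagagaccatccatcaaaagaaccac
*Bax*: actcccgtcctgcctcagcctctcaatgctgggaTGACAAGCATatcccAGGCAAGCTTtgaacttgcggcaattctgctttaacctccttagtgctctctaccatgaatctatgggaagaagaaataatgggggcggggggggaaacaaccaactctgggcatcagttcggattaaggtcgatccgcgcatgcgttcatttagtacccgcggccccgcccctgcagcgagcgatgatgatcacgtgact
*Bbc3*: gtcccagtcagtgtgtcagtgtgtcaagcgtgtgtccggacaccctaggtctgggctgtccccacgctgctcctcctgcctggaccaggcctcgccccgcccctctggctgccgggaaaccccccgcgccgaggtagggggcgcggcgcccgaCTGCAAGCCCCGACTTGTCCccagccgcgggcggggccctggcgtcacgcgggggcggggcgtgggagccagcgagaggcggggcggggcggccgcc

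In the other windows only the match and 10 bases on each side are given, again with the match in capitals. For *Sesn1* it lies at chr10:41887253-41887275 (plus strand) and for *Trp53* at chr11:69580261-69580293 (plus strand). *Mdm2* is shown with its exact half-site alone, at chr10:117710935-117710944 (minus strand). The best pair in the *Mdm2* window had 4 mismatches. In the *Sesn2* and *Phlda3* windows the best pair had 6 and 5 mismatches, and no exact half-site was found, which says only that these letters are not in this window.
*Sesn1*: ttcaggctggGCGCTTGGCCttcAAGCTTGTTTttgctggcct
*Trp53*: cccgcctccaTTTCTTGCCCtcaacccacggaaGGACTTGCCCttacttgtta
*Mdm2*: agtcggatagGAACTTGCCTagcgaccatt

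When the 3 cko libraries were set against both ctrl libraries, none of the 10 members passed an adjusted p of 0.05 in edgeR's quasi-likelihood test, where 16.4% of all 16710 tested genes did (7.86% higher and 8.57% lower in cko). At an unadjusted p under 0.05 there was 1 member of 10, *Trp53inp1*, against 32.6% of all tested genes. DESeq2 called the same member alone, against 18.6% of the genes it tested (8.99% higher in cko). Under the study's cut-offs, an absolute log2 change above 0.9 with p below 0.01, applied here to the edgeR fit, there was none, against 6.55% of tested genes. The median log2 fold change of the members was -0.14, with 3 members above 0 and 7 below, and over all tested genes it was -0.0026. The genotypes did not overlap in 2 of the 10 members, *Trp53inp1* with higher and *Mdm2* with lower values in cko, against 49.7% of all tested genes (25.4% higher and 24.3% lower). Within the members, ctrl 1 and ctrl 3 often lay farther apart than the genotype means.

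**Figure D1:**
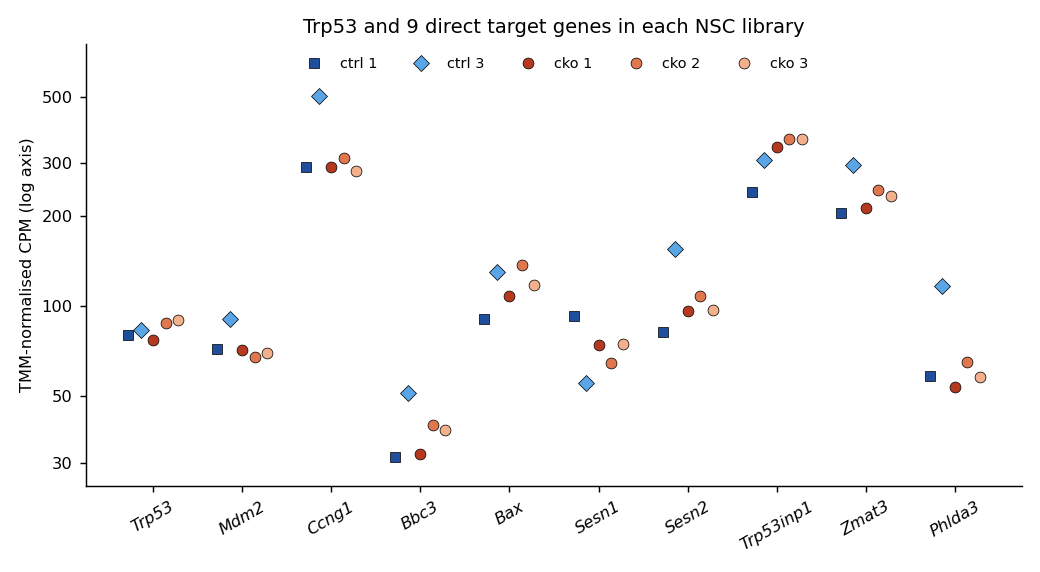
TMM-normalised CPM (log axis) of *Trp53* and its 9 targets in each library, with squares for ctrl 1, diamonds for ctrl 3 and circles for the 3 cko libraries. The ctrl 3 diamond lies above the ctrl 1 square in 9 of 10 genes, by up to 1.99-fold in *Phlda3*, and below it in *Sesn1*.

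*Trp53* itself (ENSMUSG00000059552, chromosome 11, 69580359 to 69591873, plus strand of GRCm38) was at 79.8 and 83.4 CPM in ctrl libraries 1 and 3 and at 76.9, 88.0 and 89.5 CPM in cko libraries 1, 2 and 3. The genotypes overlapped, with both ctrl libraries between cko 1, the lowest, and cko 2 and cko 3, the highest. The means were 81.6 ± 2.57 (SD, n = 2) and 84.8 ± 6.85 CPM (SD, n = 3), a log2 fold change of 0.06 (95% interval -0.15 to 0.27, adjusted p = 0.707 in edgeR). No alternative processing brought it past an adjusted p of 0.05. A processed pseudogene, *Trp53-ps*, is annotated on chromosome 17, and reads could be split between the copies.

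*Mdm2* (ENSMUSG00000020184, chromosome 10, 117688875 to 117710758, minus strand), the ubiquitin ligase that degrades p53, was at 71.8 and 90.5 CPM in ctrl 1 and ctrl 3 and at 71.2, 67.4 and 69.7 CPM in cko 1, 2 and 3. All 3 cko libraries lay below both ctrl libraries, with cko 1 at nearly the level of ctrl 1. The log2 fold change was -0.22 (standard error 0.11, 95% interval -0.47 to 0.02, adjusted p = 0.191 in edgeR). Against ctrl 1 alone it was -0.04 and against ctrl 3 alone -0.39 (adjusted p = 0.758 and 0.00991 in edgeR).

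Among the targets that feed back on p53 or act in growth control and stress, *Ccng1* (ENSMUSG00000020326, chromosome 11, 40748552 to 40755311, minus strand) encodes cyclin G1, which recruits a phosphatase to MDM2. It was at 292 and 503 CPM in ctrl 1 and ctrl 3 and at 290.5, 312 and 282 CPM in cko 1, 2 and 3. The cko libraries lay around ctrl 1, and ctrl 3 stood above the other 4. The log2 fold change was -0.43 (95% interval -0.90 to 0.03, adjusted p = 0.181 in edgeR). Against ctrl 3 alone it was -0.78, and against ctrl 1 alone 0.02.

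*Sesn1* (ENSMUSG00000038332, chromosome 10, 41809935 to 41908424, plus strand) and *Sesn2* (ENSMUSG00000028893, chromosome 4, 132492032 to 132510501, minus strand) encode sestrins, stress proteins that restrain mTORC1. *Sesn1* was at 92.4 and 55.4 CPM in ctrl 1 and ctrl 3 and at 74.3, 64.4 and 74.4 CPM in cko 1, 2 and 3. *Sesn2* ran the other way, at 82.2 and 155 CPM in ctrl and at 96.2, 108 and 97.0 CPM in cko libraries. In both genes all 3 cko libraries lay between the ctrl libraries. The log2 fold changes were -0.06 for *Sesn1* (95% interval -0.52 to 0.40, adjusted p = 0.867 in edgeR) and -0.24 for *Sesn2* (-0.78 to 0.30, adjusted p = 0.516). *Sesn1* is also known as a target of FOXO factors, and *Sesn2* of the stress factor ATF4.

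*Zmat3* (ENSMUSG00000027663, chromosome 3, 32334792 to 32366014, minus strand), an RNA-binding zinc finger protein that acts in splicing, was at 205 and 297 CPM in ctrl 1 and ctrl 3 and at 213, 244 and 233 CPM in cko 1, 2 and 3. The cko libraries again lay between the ctrl libraries. Its log2 fold change was -0.13 (95% interval -0.48 to 0.23, adjusted p = 0.610 in edgeR).

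*Phlda3* (ENSMUSG00000041801, chromosome 1, 135766119 to 135769136, plus strand) encodes a pleckstrin homology domain protein that blocks AKT at the membrane. It was at 58.4 and 116 CPM in ctrl 1 and ctrl 3 and at 53.8, 65.0 and 58.0 CPM in cko 1, 2 and 3. The cko libraries were close to ctrl 1, and ctrl 3 was alone at the top. The log2 fold change of -0.56 was the largest in size among the members in the comparison of 3 with 2 libraries (standard error 0.25, 95% interval -1.15 to 0.02, adjusted p = 0.168 in edgeR). Against ctrl 3 alone it was -0.99, past the threshold of 0.9, and against ctrl 1 alone 0.02.

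Of the targets that act in cell death, *Bbc3* (ENSMUSG00000002083, chromosome 7, 16308393 to 16318205, plus strand) encodes PUMA, a protein that frees BAX and BAK from their inhibitors. It was at 31.2 and 51.2 CPM in ctrl 1 and ctrl 3 and at 31.9, 40.0 and 38.5 CPM in cko 1, 2 and 3, so that the cko range lay within the ctrl range. The log2 fold change was -0.16 (95% interval -0.63 to 0.32, adjusted p = 0.636 in edgeR). *Bax* (ENSMUSG00000003873, chromosome 7, 45461697 to 45466898, minus strand), which opens the outer mitochondrial membrane, was at 90.8 and 130 CPM in ctrl and at 108, 137 and 118 CPM in cko libraries. The genotypes overlapped, and the log2 fold change was 0.14 (95% interval -0.24 to 0.52, adjusted p = 0.610 in edgeR). Over 192 of its 1576 exonic bases *Bax* overlaps *Gm45808* on the same strand, and its reads there are uncertain.

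*Trp53inp1* (ENSMUSG00000028211, chromosome 4, 11156431 to 11174379, plus strand), a stress protein that promotes p53 phosphorylation and autophagy, was the member nearest to a call. It was at 240.1 and 307 CPM in ctrl 1 and ctrl 3 and at 339, 361 and 362 CPM in cko 1, 2 and 3, with every cko library above both ctrl libraries. The log2 fold change was 0.37 (standard error 0.11, 95% interval 0.11 to 0.63), a fold of 1.29, with an adjusted p of 0.0631 in edgeR (0.0122 unadjusted). In DESeq2 the log2 fold change was 0.37 with an adjusted p of 0.0321. The sign held in all 13 alternatives, from 0.19 against ctrl 3 alone to 0.56 against ctrl 1 alone, with an adjusted p from 0.00152 to 0.215, and it was past 0.05 in 5 of the 13. Of these 5, 2 were fits to all 6 columns, which count the mean column ctrl 2 as another ctrl library, and 1 was the fit against ctrl 1 alone.

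Per kilobase of exon, the order of the mean levels in ctrl libraries ran from *Ccng1* at 113 and *Bax* at 69.9 RPKM (CPM per kilobase) through *Phlda3* at 56.0, *Trp53inp1* at 42.3 and *Sesn2* at 34.2 to *Zmat3* at 21.9, *Trp53* at 20.2, *Bbc3* at 19.4, *Sesn1* at 18.6 and *Mdm2* at 16.0. In cko libraries *Ccng1* at 83.9 and *Bax* at 76.7 RPKM again led. *Trp53inp1* at 54.7 RPKM stood above *Phlda3* at 37.8, whereas in ctrl 3 *Phlda3* at 74.6 RPKM exceeded *Trp53inp1* at 47.5 and in ctrl 1 they were at 37.5 and 37.1 RPKM. Between neighbours in the ctrl order the ranges over the ctrl libraries overlapped, except between *Ccng1* and *Bax*.

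**Figure D2:**
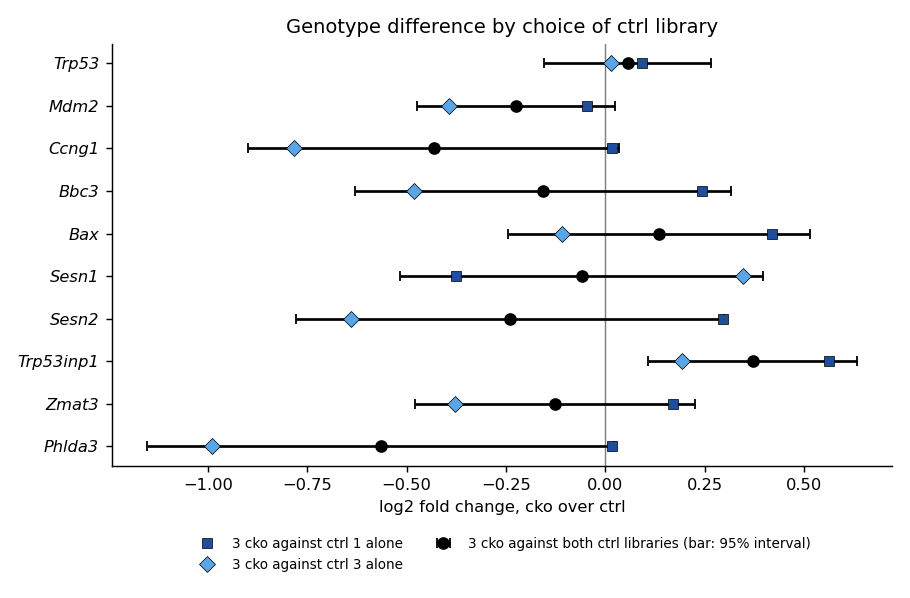
log2 fold change (cko over ctrl) of the 10 members, with black circles and bars for the estimate and 95% interval from 3 cko against both ctrl libraries, squares for the 3 cko libraries against ctrl 1 alone and diamonds against ctrl 3 alone. The bar of *Trp53inp1* alone does not cross 0, and in 7 genes the square and the diamond lie on opposite sides of 0.

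The choice of ctrl library decided the sign and the call of most members. Against ctrl 3 alone, 6 of the 10 members were lower in cko at an adjusted p under 0.05 in edgeR (*Mdm2*, *Ccng1*, *Bbc3*, *Sesn2*, *Zmat3* and *Phlda3*) and none was higher, where 11.9% of all tested genes were lower and 9.74% higher. Against ctrl 1 alone, 2 members were higher (*Bax*, log2 fold change 0.42, and *Trp53inp1*, 0.56) and *Sesn1* was lower (-0.38), where 10.3% of all tested genes were higher and 10% lower. These fits assume that the lone ctrl library varies like the cko libraries. *Bax*, *Bbc3*, *Ccng1*, *Phlda3*, *Sesn2* and *Zmat3* had log2 fold changes above 0 against ctrl 1 and below 0 against ctrl 3, and *Sesn1* the reverse. *Trp53*, *Mdm2* and *Trp53inp1* kept their sign.

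Between the ctrl libraries, ctrl 3 was above ctrl 1 in 9 of the 10 members, with a median ratio of 1.44. The ratio was 1.05 for *Trp53* (95% interval 0.977 to 1.12, counting error only), 1.26 for *Mdm2*, 1.28 for *Trp53inp1*, 1.43 for *Bax*, 1.45 for *Zmat3* and 1.64 for *Bbc3*. It was larger in *Ccng1* at 1.72, *Sesn2* at 1.89 and *Phlda3* at 1.99 (1.86 to 2.13), and *Sesn1* went the other way at 0.599 (0.556 to 0.646). The interval of *Trp53* included 1, and those of the other 9 members did not, although counting error leaves out the spread between cultures. Such intervals were computed for the members only, so that no share over all genes stands beside this count. The highest and lowest cko library differed by 1.06-fold in *Mdm2* to 1.27-fold in *Bax*. In *Mdm2*, *Ccng1*, *Sesn2*, *Zmat3* and *Phlda3* all 3 cko libraries were nearer to ctrl 1 than to ctrl 3, and in *Trp53inp1* none was. This nearness was also counted for the members only, without a share over all genes, so that it cannot be called particular to them.

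Ctrl 3 was also higher in the further p53 targets. Among genes with a mean of at least 10 CPM, it was above ctrl 1 in 29 of 36 further targets (80.6%, median ratio 1.36), in 11 of 20 p53 regulators (55%, median 1.05) and in 8 of 16 intrinsic apoptosis genes (50%, median 1.04). Over all 10180 genes at that level the share was 52.2% with a median ratio of 1.01. Ctrl 3 exceeded ctrl 1 by over 1.5-fold in 4 of the 10 members and in 13 of the 36 further targets (36.1%), against 3.95% of all genes. The opposite gap was found in 1 member, *Sesn1*, in none of the further targets and in 3.01% of all genes. With 1 library on each side this is a comparison of these libraries, with no test, and its cause was not tested. The ctrl libraries also differed in the astrocyte marker *Gfap*, at 1008 CPM in ctrl 1 and 178 CPM in ctrl 3, whose part was not tested.

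**Figure D3:**
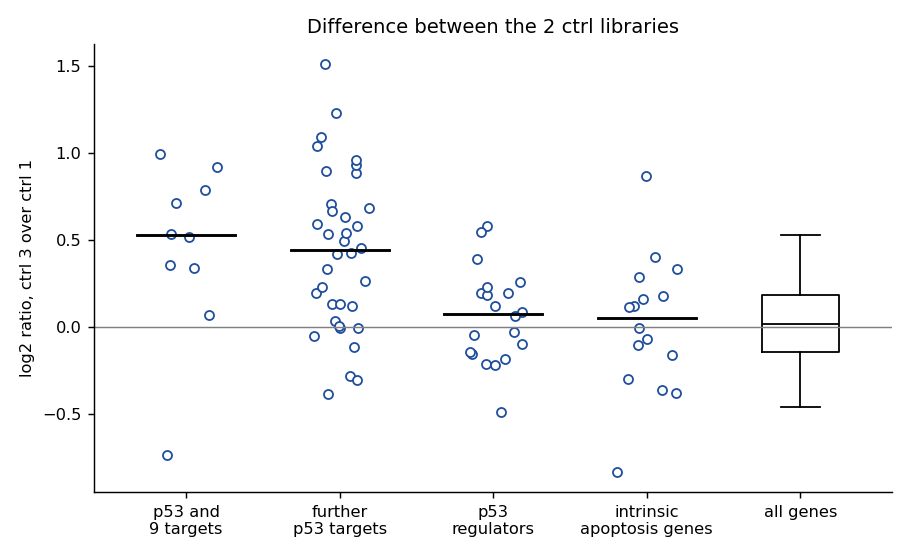
log2 ratio of ctrl 3 over ctrl 1 for genes with a mean of at least 10 CPM, with 1 point per gene, a line at the median of each list and a box for all 10180 genes (quartiles, with whiskers at the 5th and 95th percentiles). The members lie above 0 except *Sesn1*, and the median of the further targets lies well above that of all genes.

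*Cdkn1a*, the target that encodes the cell cycle inhibitor p21, had the same shape. It was at 142 and 403 CPM in ctrl 1 and ctrl 3 and at 117, 157 and 149 CPM in cko 1, 2 and 3. The cko libraries lay around ctrl 1, and ctrl 3 was 2.84-fold above ctrl 1. The log2 fold change was -0.95 (95% interval -1.81 to -0.09), with an adjusted p of 0.121 in edgeR (0.0344 unadjusted). Its second promoter window held no exact half-site, and the best pair there had 5 mismatches. The first window holds a pair of half-sites without a mismatch and with a spacer of 12 bases, at chr17:29090906-29090937 of GRCm38.p6 (plus strand). The search took the fewest mismatches whatever the spacer, so that a closer pair with more mismatches was left unmarked. In the stretch below, the lower-case bases tgacatgttc follow GAACATGTCT directly, without a spacer. They depart from the half-site consensus at their first base only, which makes an adjacent pair with 1 mismatch. The capitals therefore show the choice of the search and do not single out a p53 site. The pair taken is in capitals here.
*Cdkn1a*: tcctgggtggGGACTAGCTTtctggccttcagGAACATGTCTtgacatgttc

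Of the 54 further p53 targets listed, 51 were tested, 3 rose and 5 fell in cko at an adjusted p under 0.05 in edgeR, a share of 15.7% beside 16.4% of all tested genes, with a median log2 fold change of -0.06. Without ctrl 1 more of this list was called lower and less of it higher than without ctrl 3. Over all tested genes the shares moved in the same direction but by far less, and each of these fits holds 1 ctrl library. *Btg2*, which slows division of progenitors, rose from 124 and 115 CPM in ctrl to 176, 189 and 187 CPM in cko libraries (log2 fold change 0.62, adjusted p = 0.00355). *Rap2b*, a small GTPase, rose by 0.59 (adjusted p = 0.00670), and *Kitl*, the ligand of the KIT receptor, by 0.47 (adjusted p = 0.0466). *Fas*, the death receptor, fell from 8.26 and 8.54 CPM in ctrl to 3.58, 2.74 and 2.62 CPM in cko libraries (log2 fold change -1.498, adjusted p = 0.00493). *Lif*, a cytokine of the interleukin-6 family, fell from 1.70 and 2.72 CPM to 0.224, 0.514 and 0.506 CPM (-2.36, adjusted p = 0.0131). The receptor tyrosine kinase gene *Epha2* fell from 3.58 and 8.38 CPM to 2.57, 1.54 and 1.47 CPM (-1.69, adjusted p = 0.0333). These 6 genes were named by a rule that asks for genotypes without overlap, which 49.7% of all tested genes had. *Gtse1*, which restrains p53 in G2 and rises with division, was at 26.5 and 42.0 CPM in ctrl and 42.6, 62.7 and 56.5 CPM in cko libraries (0.66, adjusted p = 0.0863).

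Among the regulators of p53, 23 of 24 were tested, 1 rose and 3 fell, a share of 17.4% beside 16.4% of all tested genes, with a median log2 fold change of -0.04. *Ppm1d*, the WIP1 phosphatase that switches off p53 signalling and is itself a p53 target, rose from 31.9 and 36.5 CPM to 46.9, 46.1 and 44.6 CPM (0.42, adjusted p = 0.0226 in edgeR). The checkpoint kinase gene *Atr* fell from 61.3 and 64.9 CPM to 42.9, 44.8 and 48.4 CPM (-0.47, adjusted p = 0.0118). *Hipk2*, a kinase that phosphorylates p53, fell by 0.30 on the log2 scale (adjusted p = 0.0281), and *Ppp1r13b*, whose product ASPP1 directs p53 to death genes, fell by 1.02 (adjusted p = 0.0164). *Mdm4*, the partner of MDM2, was at 261 and 282 CPM in ctrl and 211, 236 and 242 CPM in cko libraries (-0.24, adjusted p = 0.101). *Cdkn2a*, whose gene-level count covers the transcripts of ARF, an inhibitor of MDM2, and of the cell cycle inhibitor p16INK4a, was at 4.85 and 15.4 CPM in ctrl and 6.43, 10.5 and 10.2 CPM in cko libraries (-0.15, adjusted p = 0.853). Of the p53 relatives, *Trp63* had at most 1 count in any library and was not tested, and *Trp73* had 6 and 17 counts in ctrl and 9, 13 and 12 in cko libraries (-0.08, adjusted p = 0.944).

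In the intrinsic apoptosis list, 18 of 20 genes were tested, 2 rose and 1 fell, a share of 16.7% beside 16.4% of all tested genes, with a median log2 fold change of 0.03. *Bok*, a relative of *Bax*, rose from 19.3 and 23.5 CPM to 28.9, 37.3 and 33.2 CPM (0.64, adjusted p = 0.0262 in edgeR). *Bcl2l11*, which encodes the BH3 protein BIM, fell from 22.6 and 21.5 CPM to 12.8, 14.0 and 13.4 CPM (-0.72, adjusted p = 0.00759). The inhibitor *Bcl2* was at 46.1 and 37.5 CPM in ctrl and 32.2, 30.9 and 35.1 CPM in cko libraries (-0.35, adjusted p = 0.0778), and *Bak1*, the partner of *Bax*, differed by 0.16 on the log2 scale (adjusted p = 0.427).

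**Figure D4:**
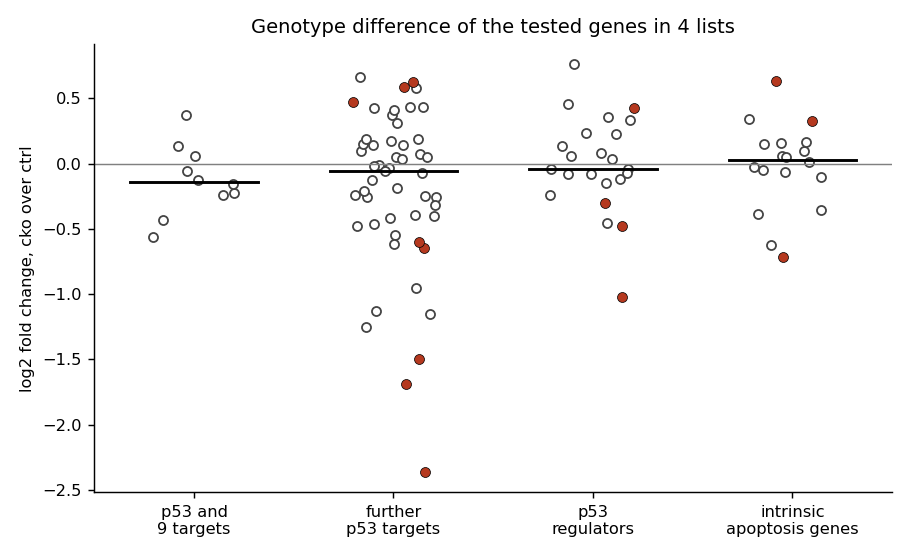
log2 fold change (cko over ctrl) of each tested gene in 4 lists, with a line at the median and filled red points for genes at an adjusted p under 0.05 in edgeR. No point is filled among *Trp53* and its 9 targets, and 8 of 51 are among the further targets.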

How the data were processed

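The authors deposited a table of raw read counts per gene for 6 NSC columns. Per the paper's methods, reads were filtered with NGSQC and aligned with HISAT2 to mm10, whereas the submitters' processing notes name GRCm39. The labels and the methods also differ in the RNA kit. The counting program and its use of strand are not given in the sources used here. Coordinates are those of GENCODE M21 (GRCm38), to which 31836 of 32493 IDs matched. Ctrl column 2, the rounded mean of the other ctrl columns, was left out. Genotypes were compared with edgeR 4.0.16 in R 4.3.3 (TMM, filterByExpr, quasi-likelihood test, no covariate, Benjamini-Hochberg over 16710 genes), with DESeq2 1.42.0 as an alternative. Scripts were tested on simulated counts. The study's cut-offs, a log2 fold change beyond 0.9 and p under 0.01, were also applied to the edgeR fit. RPKM values are CPM per kilobase of merged exons. Besides the members, the text names from each list the 3 called genes per direction with the largest change and no overlap, and 9 set genes, and 1 gene that this rule names is not reported here. *Gfap*, *Map2*, *Dcx*, *Syt1*, *Elavl4*, *Foxc1*, *Xist* and *Kdm5d* were named after their values were seen. The members and lists were chosen with earlier results of these data known.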

Additional observations from a re-analysis of the deposited data

How the results depend on the processing

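Of 130 values (10 members, 13 alternatives), 107 kept their sign and side of the threshold, 15 newly passed it with the same sign, and 8 changed sign. *Sesn1* changed sign with the replicate block (0.053). Over the fits that leave out 1 library, the log2 fold change ran from -0.11 without ctrl 1 to 0.42 without ctrl 3 in *Bax*, from -0.38 without ctrl 3 to 0.35 without ctrl 1 in *Sesn1*, and from the value without ctrl 1 to that without ctrl 3 at -0.78 to 0.017 in *Ccng1*, -0.48 to 0.24 in *Bbc3*, -0.64 to 0.30 in *Sesn2*, -0.38 to 0.17 in *Zmat3* and -0.99 to 0.018 in *Phlda3*. Leaving out each library in turn gave 317 to 1812 genes higher and 416 to 2062 lower over all genes, 0 to 2 and 0 to 6 members (0 to 1 lower under the study's cut-offs), 0 to 4 and 1 to 5 regulators, 2 to 14 and 1 to 18 further targets, and 0 to 4 and 1 to 3 apoptosis genes. DESeq2 called 1 member and 2 regulators higher, where it called 1471 genes higher and 1574 lower of 16369, and scaling by library totals gave 2 regulators higher, where 1334 genes were higher and 1418 lower of 16710. With no filter on low counts, 1838 genes were higher and 2237 lower of 30524, 1 member was higher and 2 lower (*Ccng1* and *Phlda3*), 4 regulators were higher, 7 further targets higher and 10 lower, and 2 apoptosis genes lower. With all 6 columns, which count the mean column ctrl 2 as a library, 2865 genes were higher and 2794 lower, with 1 member and 6 regulators higher, 5 further targets higher and 11 lower, and 4 apoptosis genes lower. Adding the replicate block to the 6 columns gave 2675 higher and 2673 lower, with 1 member higher, 7 regulators higher and 5 lower, 7 further targets higher and 13 lower, and 4 apoptosis genes lower. The labels do not say whether same-numbered ctrl and cko samples belong together. Their deviations correlated at 0.226 and 0.066 over 14347 genes, which cannot decide this because there are only 2 ctrl libraries. The block on the 5 libraries gave 918 genes higher and 1065 lower, no called member and 1 apoptosis gene higher. In that fit cko 2 has no ctrl library with its number, so that it adds nothing to the genotype difference. The cause of these changes was not tested. Leaving out a library also leaves fewer samples, and the part of this was not tested either.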
